A study of Arabidopsis thaliana with 42 samples.

Results

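The JAZ proteins are the repressors of jasmonate signalling, and 10 of their genes were followed here: JAZ1, JAZ2, JAZ3, JAZ5, JAZ6, JAZ7, JAZ8, JAZ9, JAZ10 and JAZ12. They were taken by gene identifier from a table of 25069 loci, and were chosen with earlier results of these data known. RNA was measured by sequencing of polyadenylated RNA from whole seedlings of Arabidopsis thaliana that were 2 weeks old. They had grown, after 7 days of cold, on agar plates with sucrose at 22 °C. Days had 16 h light and 8 h dark. The 12 RNA libraries hold 3 each of the double mutants ddm1nrpd1, ddm1nrpe1 (which the labels spell ddm1npre1) and ddm1cmt2 and of the single mutant ddm1. All 4 genotypes lack a working DDM1, a chromatin remodeller on which DNA methylation of heterochromatin depends, so each comparison sets a double mutant against the single mutant ddm1. The labels of the RNA libraries name no alleles; those of some DNA libraries of the series write ddm1-1, which the RNA labels do not repeat. The sources used here do not state the number of plants behind an RNA library or whether the 3 libraries of a genotype came from separate plants. The p-values therefore measure only the spread between these libraries, which may be technical. The study asks how the CMT2 route and RNA-directed DNA methylation interact. NRPD1 is the largest subunit of RNA polymerase IV and NRPE1 that of RNA polymerase V, both of which work in RNA-directed DNA methylation, and CMT2 methylates cytosines outside CG sites. The other 30 of the 42 samples, from other assays, are not analysed here, and neither is wild-type RNA.

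Jasmonates are lipid hormones made after wounding, insect attack and infection, and they also act in root growth and fertility. While the hormone is scarce, JAZ proteins bind MYC transcription factors through their Jas domain, and through their TIFY domain they recruit the adaptor NINJA and the corepressor TOPLESS (TPL). The active conjugate, jasmonoyl-isoleucine, joins JAZ to the F-box protein COI1, JAZ is degraded and the MYC factors are freed. Many JAZ genes are themselves targets of MYC2, so that the repressors are made again after the signal. JAZ transcript levels therefore belong both to the brake and to the readout of the pathway, and they say nothing directly about JAZ protein. Counts are per gene, so the splice forms of a JAZ gene, such as those of JAZ10 that resist degradation, were not separated.

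Total counts ran between 7.84 and 24.8 M per library, lowest in ddm1 (7.84 to 10.2 M), and replicates correlated at r between 0.976 and 0.993 across loci. NRPD1 transcripts were higher in ddm1nrpd1 than in ddm1 (14.1 against 5.74 CPM) and NRPE1 transcripts were higher in ddm1nrpe1 (58.7 against 13.1 CPM). CMT2 stood at 26.8 CPM in ddm1cmt2 and 31.8 CPM in ddm1 (log2 fold change -0.24, adjusted p = 0.105), and DDM1 at 15.9, 11.9 and 14.0 CPM in ddm1nrpd1, ddm1nrpe1 and ddm1cmt2 and 14.6 CPM in ddm1. Counts over the whole gene thus do not check the labels as loss of transcript. The genotypes also differed in other measured ways. Plastid loci took 0.164 to 0.263% of counts in ddm1nrpd1, 0.124 to 0.309% in ddm1nrpe1 and 0.779 to 0.924% in ddm1cmt2, against 1.57 to 1.97% in ddm1. The 6 root markers summed to 40.4 to 53.5 CPM in ddm1nrpd1, 42.0 to 44.5 in ddm1nrpe1 and 91.1 to 114 in ddm1cmt2, against 94.9 to 122 in ddm1. Single root markers did not move alike. COBL9 and EXPA7 averaged 0.0687 and 0.0343 CPM in ddm1nrpd1, against 9.16 and 9.9 in ddm1. NRT2.1 went the other way, with 1.35, 2.22 and 3.53 CPM in the 3 double mutants, against 0.43 in ddm1. The 5 leaf markers summed to 30900 to 34400, 28400 to 37800 and 48800 to 55100 CPM in those double mutants, against 35200 to 38000 in ddm1, so leaf and root markers bear out the label seedling, while none of the 3 seed and pollen markers is among the counted loci. Of 10 circadian clock genes, 8 passed the test in ddm1nrpd1, 9 in ddm1nrpe1 and 8 in ddm1cmt2 against ddm1, beside 44.6%, 50.4% and 36.1% of all tested loci. GI, a clock gene that peaks late in the day, averaged 68.9, 15.2 and 126 CPM in the double mutants against 1.14 CPM in ddm1. LHY, a morning clock gene, averaged 512, 216 and 24.7 CPM in the same order, against 647 CPM in ddm1. The sources used here do not state the hour of harvest, and several jasmonate genes are known to follow the clock. The part of clock genes, organ markers or plastid share in the differences below was not tested. In whole seedlings, more RNA per cell and more cells that express a gene cannot be told apart.

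Levels are CPM, read counts divided by the TMM-scaled size of the library, given per library in the order of replicates 1, 2 and 3 or as mean ± SD of 3 libraries. A log2 fold change is given ± its standard error, and the words rose and fell stand for an adjusted p under 0.05 by the quasi-likelihood test of edgeR, adjusted by Benjamini-Hochberg over all 24839 tested loci. A test against ddm1 shares its 3 ddm1 libraries with the others, so calls in several double mutants are given side by side and are not independent of each other. CPM are not per length, so levels are compared within a gene only. JAZ7 and JAZ8 fell below the filter on low counts, which left 8 of the 10 members tested.

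Against ddm1, JAZ1 rose in all 3 double mutants, JAZ12 rose in ddm1nrpe1 and ddm1cmt2, JAZ3 and JAZ6 rose in ddm1nrpe1, JAZ3 fell in ddm1nrpd1 and JAZ9 fell in ddm1nrpe1. In ddm1nrpd1, 1 tested member rose, 1 fell and 6 did not pass the test, beside 44.6% of all tested loci called. In ddm1nrpe1, 4 rose, 1 fell and 3 did not pass, beside 50.4% of all tested loci. In ddm1cmt2, 2 rose, none of the 8 fell and 6 did not pass, beside 36.1% of all tested loci called. No member had a negative fold change at an unadjusted p under 0.05 there, and DESeq2 also called none fallen. A fit of the 6 libraries alone called JAZ9 fallen (-0.30, adjusted p = 0.0472). In ddm1nrpd1, JAZ7 came over the filter on low counts and rose in 7 of the 12 fits that leave out 1 library. These were the fits without ddm1nrpd1 replicates 1 or 3, ddm1nrpe1 replicate 3, any ddm1cmt2 replicate or ddm1 replicate 3. They had 2 members risen, or 3 in the fits without ddm1cmt2 replicate 1 or ddm1 replicate 3, where JAZ5 rose too. In ddm1nrpe1, JAZ7 rose in 10 of these 12 fits, and 5 members had risen in 9 of them. The filter goes by the smallest group, which holds 2 libraries in these fits. JAZ7 thus entered through ddm1nrpe1, where it had most reads, and was not called without ddm1nrpe1 replicates 1 or 2. Its rise in ddm1nrpe1 follows in part from how it entered and is no separate support. In ddm1nrpd1 it was tested and not called without ddm1nrpd1 replicate 2 or ddm1 replicates 1 or 2. In ddm1cmt2, 1 member rose without ddm1 replicate 3. With 8 genes, these counts lie within reach of the shares of all loci, and nothing particular to the family is read from them. The median log2 fold change of the tested members was 0.27 in ddm1nrpd1, 0.50 in ddm1nrpe1 and 0.29 in ddm1cmt2, while that of all tested loci was 0.00, 0.01 and 0.00. The median size without sign was 0.33, 0.55 and 0.30 for the members and 0.37, 0.42 and 0.34 for all loci. The libraries of double mutant and ddm1 did not overlap for 3 of 8 members in ddm1nrpd1, 6 in ddm1nrpe1 and 2 in ddm1cmt2, beside 56.2%, 59.3% and 47% of all tested loci.

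**Figure D1:**
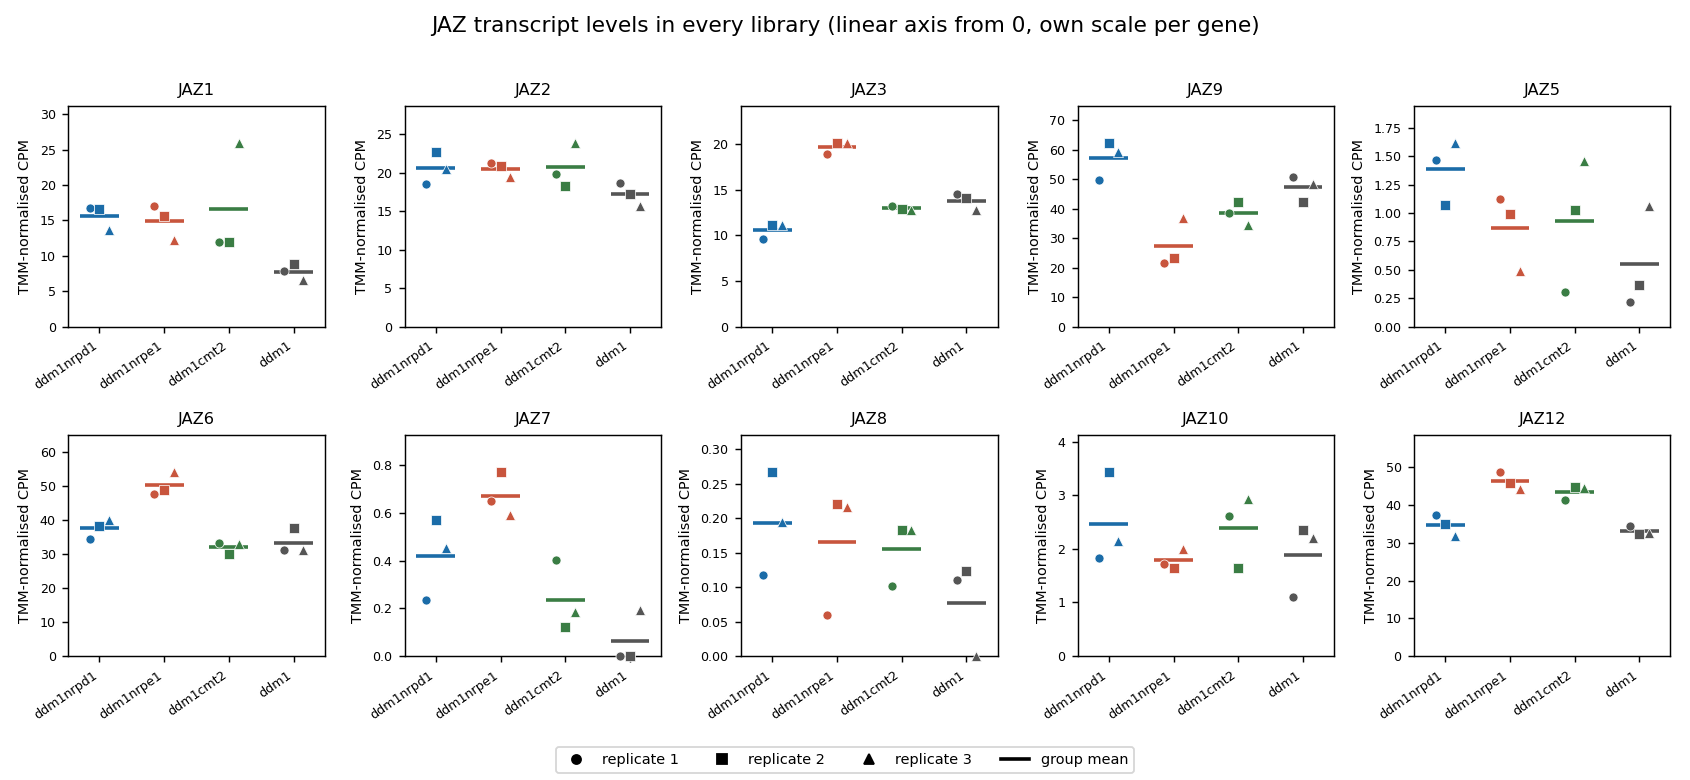
Level of each of the 10 JAZ genes in CPM (y axis, linear, from 0, each gene on its own scale) in the 12 libraries; points are single libraries, marker shapes are replicate numbers, horizontal bars are the means of 3 libraries, and groups run ddm1nrpd1, ddm1nrpe1, ddm1cmt2 and ddm1. All 9 double mutant libraries lie above the ddm1 libraries for JAZ1, and for JAZ9 the 3 ddm1nrpe1 libraries, at 21.7 to 36.9 CPM, lie below the ddm1 libraries.

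JAZ1 and JAZ2 are close relatives of one JAZ subgroup; JAZ1 was among the first repressors shown to be degraded through COI1 and it binds MYC2. JAZ1 (AT1G19180, chromosome 1) had 16.8, 16.6 and 13.6 CPM in ddm1nrpd1, 17.0, 15.6 and 12.2 in ddm1nrpe1 and 11.9, 11.9 and 26.0 in ddm1cmt2, against 7.80, 8.77 and 6.54 in ddm1. Each double mutant library exceeded each ddm1 library, and ddm1cmt2 replicate 3 stood apart as the highest of all 12. JAZ1 rose 2.05-fold in ddm1nrpd1 (log2 fold change 1.03 ± 0.29, adjusted p = 0.0114), 1.95-fold in ddm1nrpe1 (0.96 ± 0.29, adjusted p = 0.0152) and 2.16-fold in ddm1cmt2 (1.11 ± 0.29, adjusted p = 0.0109). The double mutants did not pass the test against each other, with 95% intervals of the log2 difference of -0.63 to 0.48 for ddm1nrpe1 minus ddm1nrpd1, -0.49 to 0.64 for ddm1cmt2 minus ddm1nrpd1 and -0.42 to 0.72 for ddm1cmt2 minus ddm1nrpe1. Without ddm1 replicate 3, the lowest ddm1 library, JAZ1 missed the threshold in ddm1nrpe1 (0.83, adjusted p = 0.0671) and in ddm1cmt2 (0.97, adjusted p = 0.0523). Without ddm1cmt2 replicate 3 the log2 fold change in ddm1cmt2 was 0.65 (adjusted p = 0.0112), and in a fit of its own 6 libraries that comparison gave an adjusted p of 0.0544.

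JAZ2 (AT1G74950, chromosome 1) is known from guard cells, where it acts in the stomatal response to bacteria. It had smaller log2 fold changes than JAZ1 against ddm1, a difference that the exact test of their ratio, given below, could not take past the threshold. It had 18.5, 22.7 and 20.4 CPM in ddm1nrpd1, 21.3, 20.8 and 19.4 in ddm1nrpe1 and 19.8, 18.3 and 23.9 in ddm1cmt2, against 18.6, 17.2 and 15.7 in ddm1. Only the ddm1nrpe1 libraries lay wholly above those of ddm1. The log2 fold changes were 0.27, 0.26 and 0.27 (SE 0.12 each) in ddm1nrpd1, ddm1nrpe1 and ddm1cmt2, with adjusted p = 0.0888, 0.0896 and 0.106, so JAZ2 passed in none of these 3 comparisons. The 95% intervals ran from 0.01 to 0.52, from 0 to 0.52 and from 0 to 0.53, so their lower ends lay at or near 0. The unadjusted p-values of the quasi-likelihood test were 0.045, 0.051 and 0.047. The upper ends leave room for a JAZ2 change of about that size.

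JAZ5 and JAZ6 make a second pair of relatives, and JAZ5 is known as one of the JAZ genes quickly induced by wounding. JAZ5 (AT1G17380, chromosome 1) was scarce, with 1.47, 1.07 and 1.62 CPM in ddm1nrpd1, 1.12, 0.992 and 0.485 in ddm1nrpe1 and 0.303, 1.03 and 1.46 in ddm1cmt2, against 0.22, 0.37 and 1.06 in ddm1. These are 2 to 28 reads per library, and the ddm1nrpd1 libraries lie just above the highest ddm1 library. Its log2 fold change was 1.23 ± 0.54 in ddm1nrpd1 (adjusted p = 0.074), 0.58 ± 0.58 in ddm1nrpe1 (adjusted p = 0.42) and 0.73 ± 0.59 in ddm1cmt2 (adjusted p = 0.364). All 3 values depended on single libraries, above all on ddm1. Leaving out 1 library at a time, JAZ5 ran between 0.85 and 2.19 in ddm1nrpd1, between 0.20 and 1.52 in ddm1nrpe1 and between 0.35 and 1.67 in ddm1cmt2, each time lowest without ddm1 replicate 1 and highest without ddm1 replicate 3. In ddm1nrpd1 it passed without ddm1 replicate 3 (adjusted p = 0.02), without ddm1cmt2 replicate 1 (1.22, adjusted p = 0.0499) and with its own 6 libraries (1.21, adjusted p = 0.0416).

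JAZ6 (AT1G72450, chromosome 1) had 34.4, 38.1 and 40.0 CPM in ddm1nrpd1, 47.7, 48.7 and 54.0 in ddm1nrpe1 and 33.1, 30.1 and 32.9 in ddm1cmt2, against 31.2, 37.7 and 31.1 in ddm1. The ddm1nrpe1 libraries stood above the other 9, which overlapped with ddm1 in both other double mutants. JAZ6 rose 1.51-fold in ddm1nrpe1 (0.59 ± 0.10, adjusted p = 0.000206), and it stood at 0.17 ± 0.10 in ddm1nrpd1 (adjusted p = 0.179) and -0.06 ± 0.10 in ddm1cmt2 (adjusted p = 0.711). The difference itself passed too: JAZ6 was higher in ddm1nrpe1 than in ddm1nrpd1 (0.42 ± 0.10, adjusted p = 0.00387) and lower in ddm1cmt2 than in ddm1nrpe1 (-0.65 ± 0.10, adjusted p = 6.13e-05).

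JAZ3 and JAZ9 belong to another subgroup; a JAZ3 form without its Jas domain makes plants insensitive to jasmonate, and JAZ9 also binds a DELLA protein, a repressor of gibberellin signalling. JAZ3 (AT3G17860, chromosome 3) had 9.58, 11.1 and 11.2 CPM in ddm1nrpd1, 18.9, 20.1 and 20.2 in ddm1nrpe1 and 13.2, 12.9 and 12.8 in ddm1cmt2, against 14.6, 14.1 and 12.8 in ddm1. The groups were tight and stood in the order ddm1nrpe1, ddm1, ddm1cmt2 and ddm1nrpd1, where ddm1cmt2 and ddm1 overlap. JAZ3 rose 1.43-fold in ddm1nrpe1 (0.51 ± 0.11, adjusted p = 0.000955), fell in ddm1nrpd1 (-0.38 ± 0.11, adjusted p = 0.011) and stood at -0.09 ± 0.11 in ddm1cmt2 (adjusted p = 0.561). Tested directly, it was 1.85-fold higher in ddm1nrpe1 than in ddm1nrpd1 (0.89 ± 0.10, adjusted p = 9.44e-06), the widest positive difference among the 8 tested members in that comparison. It was lower in ddm1cmt2 than in ddm1nrpe1 (-0.61 ± 0.10, adjusted p = 0.000163). Its excess in ddm1cmt2 over ddm1nrpd1 was small (0.29 ± 0.11, adjusted p = 0.0362). That call was lost in 13 of the 21 other fits, among them the fits without either of ddm1nrpd1 replicates 1 and 2, any ddm1cmt2 replicate or ddm1 replicate 3 (0.22 to 0.32, adjusted p between 0.0504 and 0.127).

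JAZ9 (AT1G70700, chromosome 1) went the other way in ddm1nrpe1. It had 49.6, 62.4 and 59.2 CPM in ddm1nrpd1, 21.7, 23.4 and 36.9 in ddm1nrpe1 and 38.4, 42.3 and 34.6 in ddm1cmt2, against 50.8, 42.2 and 48.5 in ddm1. The ddm1nrpe1 libraries lay below all ddm1 libraries, with replicate 3 well above the other ddm1nrpe1 libraries and inside the range of ddm1cmt2. JAZ9 fell in ddm1nrpe1 to 0.58 of its ddm1 level (-0.79 ± 0.17, adjusted p = 0.00193), while 0.27 ± 0.17 in ddm1nrpd1 (adjusted p = 0.203) and -0.29 ± 0.17 in ddm1cmt2 (adjusted p = 0.204) did not pass. Between double mutants, JAZ9 was lower in ddm1nrpe1 than in ddm1nrpd1 (-1.06 ± 0.17, adjusted p = 0.000297), lower in ddm1cmt2 than in ddm1nrpd1 (-0.57 ± 0.17, adjusted p = 0.0119) and higher in ddm1cmt2 than in ddm1nrpe1 (0.49 ± 0.17, adjusted p = 0.0257). This last difference lost its call without ddm1nrpe1 replicate 1 (0.35), ddm1nrpe1 replicate 2 (0.39), ddm1cmt2 replicate 1 (0.50) or ddm1cmt2 replicate 2 (0.43).

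JAZ12 (AT5G20900, chromosome 5) encodes a repressor whose protein level is known to be set by the ubiquitin ligase KEG. It had 37.4, 34.9 and 31.7 CPM in ddm1nrpd1, 48.7, 45.9 and 44.1 in ddm1nrpe1 and 41.2, 44.7 and 44.6 in ddm1cmt2, against 34.5, 32.3 and 32.5 in ddm1. All 6 libraries of ddm1nrpe1 and ddm1cmt2 lay above the 6 of ddm1nrpd1 and ddm1. JAZ12 rose 1.40-fold in ddm1nrpe1 (0.48 ± 0.09, adjusted p = 0.000464) and 1.31-fold in ddm1cmt2 (0.39 ± 0.09, adjusted p = 0.00351), and stood at 0.07 ± 0.09 in ddm1nrpd1 (adjusted p = 0.577). Set directly against ddm1nrpd1, it was higher in ddm1nrpe1 (0.41 ± 0.09, adjusted p = 0.00195) and in ddm1cmt2 (0.33 ± 0.09, adjusted p = 0.00641), while ddm1cmt2 minus ddm1nrpe1 was -0.09 with a 95% interval of -0.28 to 0.10.

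In RefSeq's annotation the JAZ12 gene shares 28 bases with its neighbour AIP2 (AT5G20910), a ubiquitin ligase of the abscisic acid response, and AIP2 was looked at after its values had been seen. AIP2 averaged 9.04 CPM in ddm1nrpd1, 13.7 in ddm1nrpe1 and 12.4 in ddm1cmt2, against 7.79 in ddm1, and it had the same calls as JAZ12 in these comparisons (0.22 ± 0.15 with adjusted p = 0.231, 0.82 ± 0.14 with adjusted p = 0.000235 and 0.67 ± 0.15 with adjusted p = 0.00224). Whether reads of the shared stretch bear on either gene was not tested, and the sources used here do not state whether the counting used strand. JAZ10 and JAZ12 each overlap a long noncoding RNA locus that is not among the counted loci, and the other 8 members overlap no annotated locus.

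JAZ10 (AT5G13220, chromosome 5), a feedback repressor with splice forms that resist degradation, had 1.82, 3.43 and 2.14 CPM in ddm1nrpd1, 1.72, 1.65 and 1.99 in ddm1nrpe1 and 2.62, 1.64 and 2.92 in ddm1cmt2, against 1.10, 2.35 and 2.21 in ddm1. Every double mutant overlapped with ddm1. The log2 fold changes were 0.42 ± 0.33, -0.07 ± 0.34 and 0.31 ± 0.35 (adjusted p = 0.311, 0.871 and 0.517), with 95% intervals of -0.27 to 1.11, -0.80 to 0.65 and -0.42 to 1.04, so these JAZ10 intervals do not exclude changes of those sizes.

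JAZ7 and JAZ8 are short JAZ proteins with an EAR motif; JAZ8 binds TPL directly and resists hormone-triggered degradation. JAZ7 (AT2G34600, chromosome 2) had 4, 15 and 7 reads in ddm1nrpd1, 11, 14 and 11 in ddm1nrpe1 and 4, 2 and 2 in ddm1cmt2, against 0, 0 and 2 in ddm1. The libraries of ddm1nrpd1 and ddm1nrpe1 all held more JAZ7 reads than any ddm1 library, which were also the shallowest. Scaled for depth, the summed JAZ7 reads were 6.12 times those of ddm1 in ddm1nrpd1 (95% counting interval 1.53 to 53.2), 9.27 times in ddm1nrpe1 (2.39 to 79.5) and 2.96 times in ddm1cmt2 (0.591 to 28.6); these exact intervals cover counting error only. In the fit without a filter, JAZ7 passed in ddm1nrpd1 (2.47 ± 0.85, adjusted p = 0.0274) and ddm1nrpe1 (3.06 ± 0.79, adjusted p = 0.00483) and not in ddm1cmt2 (1.46 ± 1.03, adjusted p = 0.291), beside 44.2%, 50.2% and 35.9% of loci called there. JAZ8 (AT1G30135, chromosome 1) had 2, 7 and 3 reads in ddm1nrpd1, 1, 4 and 4 in ddm1nrpe1 and 1, 3 and 2 in ddm1cmt2, against 1, 1 and 0 in ddm1. Its ratios to ddm1 were 2.82 (0.629 to 26.0), 2.32 (0.480 to 22.0) and 2.22 (0.397 to 22.5), all with intervals that hold 1, and it passed in none of the 3 comparisons against ddm1 in the fit without a filter (adjusted p = 0.234, 0.354 and 0.459).

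**Figure D2:**
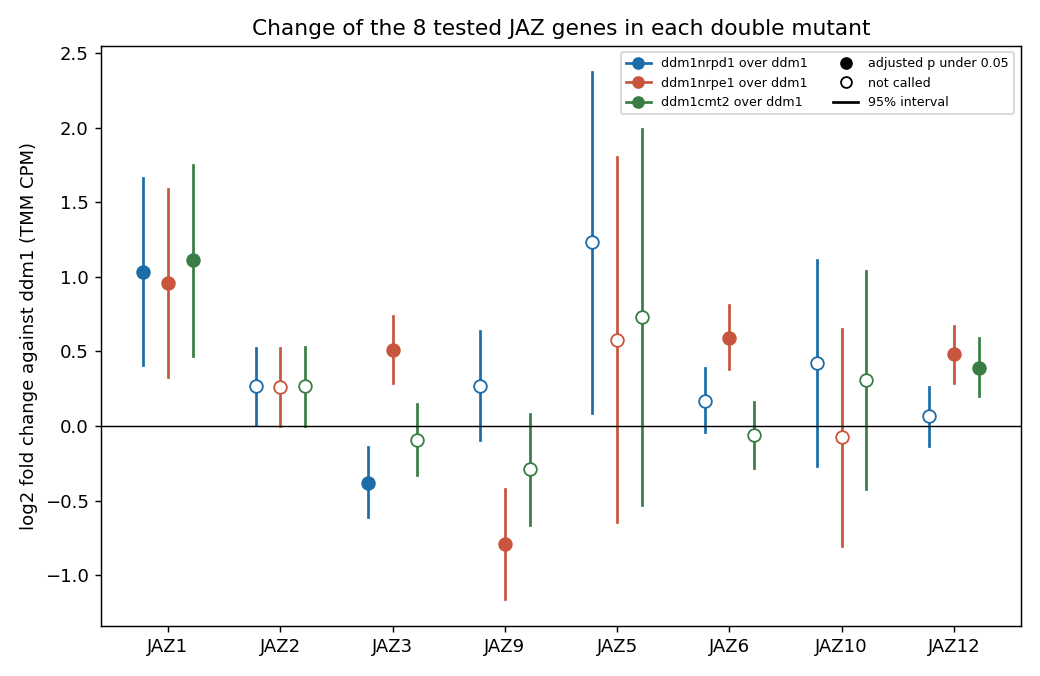
Log2 fold change of the 8 tested JAZ genes against ddm1 (y axis, genes along the x axis) with 95% intervals as bars, coloured by double mutant; filled points passed the test (adjusted p under 0.05). JAZ1 lies above 0 in all 3 double mutants, JAZ3 and JAZ9 lie on opposite sides of 0 in ddm1nrpd1 and ddm1nrpe1 with filled points for JAZ3 in both and for JAZ9 in ddm1nrpe1, and JAZ5 and JAZ10 have the widest intervals.

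Between double mutants, the members separated by gene. In ddm1nrpe1 against ddm1nrpd1, JAZ3, JAZ6 and JAZ12 were higher, JAZ9 was lower and 4 did not pass, beside 19.7% of all tested loci higher and 16.4% lower (36.1% called). In ddm1cmt2 against ddm1nrpd1, JAZ3 and JAZ12 were higher, JAZ9 was lower and 5 did not pass, beside 26% of loci higher and 24.5% lower (50.5% called). In ddm1cmt2 against ddm1nrpe1, JAZ9 was higher, JAZ3 and JAZ6 were lower and 5 did not pass, beside 26.9% of loci higher and 28.2% lower (55.1% called). In ddm1cmt2 against ddm1nrpd1, JAZ6 was lower as well without ddm1nrpd1 replicate 1. In ddm1cmt2 against ddm1nrpe1, JAZ7 was lower as well, for 3 members, in 8 of the 12 fits that leave out 1 library, with the 6 libraries alone and with no filter (-1.60 ± 0.57, adjusted p = 0.0268). Where a filter was used, JAZ7 passed it through its reads in ddm1nrpe1, so those calls are no separate support. JAZ1, JAZ2, JAZ5 and JAZ10 thus passed in none of the 3 comparisons between double mutants. The smallest of their unadjusted p-values was 0.11, for JAZ10 in ddm1nrpe1 against ddm1nrpd1.

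Ratios of 2 members within the same library do not depend on how libraries are scaled. The log2 ratio of JAZ9 to JAZ3 reads averaged 2.42 ± 0.06 in ddm1nrpd1, 0.43 ± 0.38 in ddm1nrpe1 and 1.56 ± 0.14 in ddm1cmt2, against 1.77 ± 0.17 in ddm1 (SD, n = 3). Its libraries ran between 2.37 and 2.49, between 0.20 and 0.87 and between 1.43 and 1.71, against 1.58 to 1.92 in ddm1, so ddm1nrpd1 lay wholly above ddm1 and ddm1nrpe1 wholly below it. The log2 ratio of JAZ9 to JAZ6 averaged 0.60 ± 0.10, -0.92 ± 0.32 and 0.26 ± 0.21 in the same order, against 0.50 ± 0.30 in ddm1, and JAZ9 to JAZ12 averaged 0.72 ± 0.27, -0.80 ± 0.47 and -0.18 ± 0.16, against 0.51 ± 0.11 in ddm1. Reads of JAZ9 thus outnumbered those of JAZ6 and JAZ12 in all 6 libraries of ddm1nrpd1 and ddm1 and were fewer in all 3 of ddm1nrpe1, a count of reads that is not corrected for gene length. The log2 ratio of JAZ1 to JAZ2, the pair of relatives, averaged -0.39 ± 0.23, -0.47 ± 0.18 and -0.41 ± 0.46 in the double mutants, against -1.16 ± 0.17 in ddm1. Against ddm1, a two-sided exact permutation test reached p = 0.1, the smallest that 3 against 3 libraries allow, for JAZ9 to JAZ3 in ddm1nrpd1 and ddm1nrpe1, for JAZ9 to JAZ6 in ddm1nrpe1, for JAZ9 to JAZ12 in ddm1nrpe1 and ddm1cmt2 and for JAZ1 to JAZ2 in all 3. Over the 15 such exact tests of 5 ratios the Benjamini-Hochberg adjusted p of these was 0.19, so this design cannot take the ratios past the threshold. In ddm1nrpe1 the ratios of JAZ9 to JAZ3, JAZ6 and JAZ12 set the member that fell against members that rose. They restate those calls and are no separate support. The fifth ratio, JAZ5 to JAZ6, averaged -4.75 ± 0.33, -5.89 ± 0.73 and -5.27 ± 1.12, against -6.03 ± 1.07 in ddm1.

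**Figure D3:**
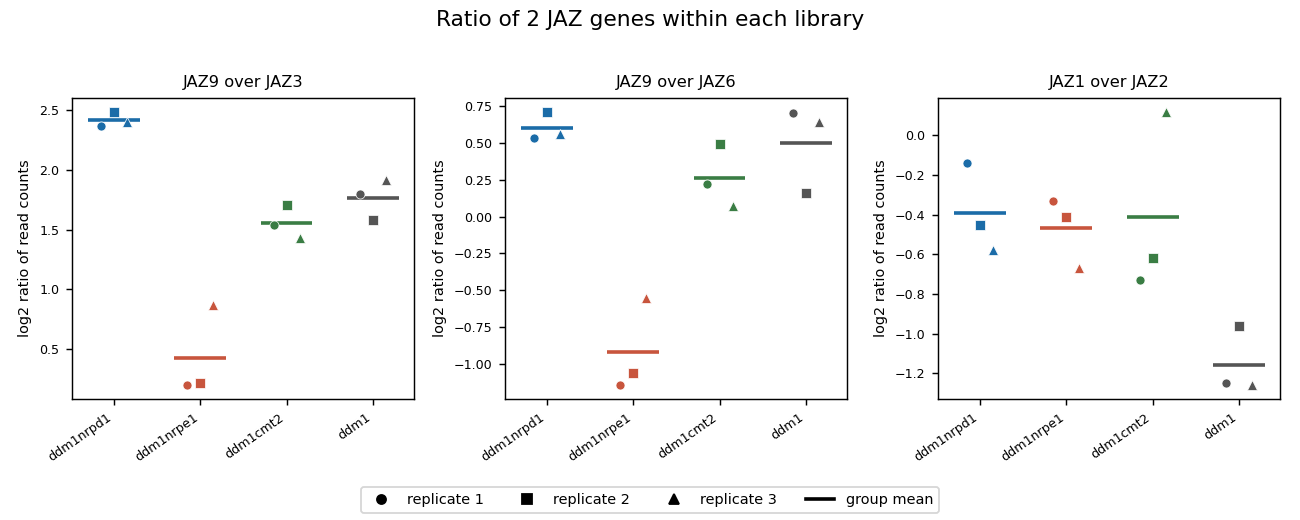
Log2 ratio of the reads of 2 JAZ genes within each library (y axis) for the 12 libraries by genotype for 3 of the gene pairs; points are libraries, marker shapes are replicate numbers and bars are means of 3. The JAZ9 to JAZ3 ratio is highest in ddm1nrpd1 (mean 2.42) and lowest in ddm1nrpe1 (0.43), with ddm1 at 1.77, and the JAZ1 to JAZ2 ratio is lower in ddm1 (-1.16) than in each double mutant.

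The spread between replicates differed widely between members. The SD of log2 CPM within groups was 0.08 for JAZ3 and JAZ12, 0.11 for JAZ6, 0.14 for JAZ2, 0.24 for JAZ9, 0.37 for JAZ1, 0.40 for JAZ10 and 0.63 for JAZ5, where the median of all tested loci was 0.19. JAZ12 and JAZ3 thus passed against ddm1 with log2 fold changes as small as 0.39 and -0.38, where the standard errors of JAZ5 alone were 0.54 to 0.59. As a description of likeness over the 12 libraries, taken as the root mean square difference of centred log2 CPM, the closest members were JAZ2 and JAZ12 (0.199) and JAZ3 and JAZ6 (0.235), and the farthest were JAZ3 and JAZ5 (0.831). The 12 libraries share the ddm1 mutation and group into 4 genotypes, their depths differ, and 2 members that vary little are close by this measure whatever their pattern.

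For the 3 tested members whose group means spanned at least 2-fold, the loci with the most similar pattern were found by the same measure, as a description. The search took tested loci with a nuclear gene identifier and left the members out. Those nearest to JAZ1 were ATAF2, a NAC transcription factor of wounding and defence (0.161), AT1G34420 (0.176) and PAD4, a lipase-like regulator of immunity (0.188), where the median over the loci searched was 0.624. Those nearest to JAZ9 were AT3G44630 (0.147), AT5G42720 (0.154) and AT1G33110 (0.158), beside a median of 0.565. Those nearest to JAZ5, AT1G68390 (0.340), AT1G20120 (0.364) and RBOHA (0.365), lay much farther from it, beside a median of 0.746.

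The other TIFY genes share the TIFY domain with the JAZ family and lack its repressor role in the hormone's receptor complex. Of 6 such genes, none passed in ddm1nrpd1 by edgeR (1, ZIM, had an unadjusted p under 0.05, and DESeq2 and limma-voom called 0), 1 fell in ddm1nrpe1 and 1 fell in ddm1cmt2. All tested loci were called at 44.6%, 50.4% and 36.1% there. TIFY8 fell in ddm1nrpe1 (30.0 against 43.4 CPM, -0.53 ± 0.15, adjusted p = 0.0103), a call lost without ddm1 replicate 3 (adjusted p = 0.0531). PPD2, a repressor of leaf growth, fell in ddm1cmt2 (8.27 against 11.1 CPM, -0.43 ± 0.15, adjusted p = 0.0372), a call lost without ddm1cmt2 replicates 2 or 3 or ddm1 replicates 1 or 3 (adjusted p between 0.0745 and 0.163) or with the 6 libraries alone (adjusted p = 0.0589). The number called in ddm1nrpe1 was 3 without ddm1nrpe1 replicate 3, 2 without ddm1cmt2 replicate 3 and 0 without ddm1 replicate 3.

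Of 41 listed genes elsewhere in the jasmonate pathway, 38 were tested: 8 rose and 7 fell in ddm1nrpd1, 17 rose and 6 fell in ddm1nrpe1, and 16 rose and 3 fell in ddm1cmt2. The median log2 fold change of these genes was 0.14, 0.22 and 0.42, while that of all tested loci was 0.00, 0.01 and 0.00. All tested loci rose at 22.9%, 26.5% and 18.4% and fell at 21.7%, 23.9% and 17.7%. Without ddm1 replicate 3, 11 of the pathway genes rose in ddm1nrpe1 in place of 17, and without ddm1 replicate 1, 1 fell in ddm1cmt2 in place of 3.

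Synthesis genes moved upward in every double mutant more often than they moved downward. Of 13 tested, 7 rose and 1 fell in ddm1nrpd1, 9 rose in ddm1nrpe1 and 9 rose in ddm1cmt2, with median log2 fold changes of 0.74, 0.95 and 1.01. The share called among all tested loci was 44.6%, 50.4% and 36.1%, of which 22.9%, 26.5% and 18.4% rose and 21.7%, 23.9% and 17.7% fell. AOS, the allene oxide synthase that commits lipid hydroperoxides to jasmonate, had 39.7, 52.5 and 49.8 CPM in ddm1nrpd1, 51.2, 56.7 and 58.3 in ddm1nrpe1 and 117, 123 and 105 in ddm1cmt2, against 17.6, 21.1 and 17.5 in ddm1. No double mutant library of AOS overlapped with ddm1, and the gene rose 2.54-fold (1.34 ± 0.12, adjusted p = 5.13e-07), 2.97-fold (1.57 ± 0.12, adjusted p = 8e-08) and 6.15-fold (2.62 ± 0.13, adjusted p = 7.32e-10). LOX3, a lipoxygenase of the first step, rose by 1.64 ± 0.21, 1.07 ± 0.22 and 2.45 ± 0.21 on the log2 scale (adjusted p = 1.92e-05, 0.000937 and 3.38e-07). OPCL1, a peroxisomal CoA ligase, rose by 1.28 ± 0.21, 1.65 ± 0.21 and 1.51 ± 0.22 (adjusted p = 0.000318, 3.48e-05 and 0.000121). JAR1, which conjugates jasmonate to isoleucine, rose in ddm1cmt2 (0.73 ± 0.10, adjusted p = 2.97e-05) and stood at 0.15 ± 0.10 in ddm1nrpd1 (adjusted p = 0.236) and -0.20 ± 0.10 in ddm1nrpe1 (adjusted p = 0.101). The allene oxide cyclase genes of the list are close paralogs that may share reads.

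Of 5 genes of the receptor and corepressor, none rose by edgeR in the 3 comparisons against ddm1 (NINJA in ddm1nrpd1 and ASK1 in ddm1nrpe1 were higher at an unadjusted p under 0.05), while 1 fell in ddm1nrpd1, 1 in ddm1nrpe1 and 2 in ddm1cmt2. Beside them, 44.6%, 50.4% and 36.1% of all tested loci were called, and nothing particular to this list is read from its counts. TPL, the corepressor that JAZ proteins recruit, had 155, 190 and 193 CPM in ddm1nrpd1, 167, 180 and 187 in ddm1nrpe1 and 106, 125 and 123 in ddm1cmt2, against 256, 242 and 241 in ddm1. All double mutant libraries of TPL lay below ddm1, and it fell in each (-0.46 ± 0.11, -0.47 ± 0.11 and -1.06 ± 0.11, with adjusted p = 0.00242, 0.00186 and 1.8e-06). COI1, the receptor's F-box protein, fell in ddm1cmt2 (30.3 against 37.8 CPM, -0.32 ± 0.10, adjusted p = 0.0243) and stood at -0.07 ± 0.10 in ddm1nrpd1 and -0.19 ± 0.10 in ddm1nrpe1 (adjusted p = 0.63 and 0.142). The COI1 call in ddm1cmt2 was lost without ddm1cmt2 replicate 1 or ddm1 replicates 1 or 3 (adjusted p between 0.0689 and 0.084), and the number called in ddm1nrpe1 was 2 without ddm1nrpe1 replicate 3 or ddm1 replicate 2.

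The MYC factors that JAZ proteins bind did not move as 1 group. Of 8 transcription factor genes tested, 1 rose and 1 fell in ddm1nrpd1, 2 rose and 2 fell in ddm1nrpe1, and 2 rose in ddm1cmt2. Beside these, 44.6%, 50.4% and 36.1% of all tested loci were called, and nothing particular to the list is read from its counts. MYC2, the best known JAZ target, had 29.9, 26.4 and 21.3 CPM in ddm1nrpd1, 17.2, 17.2 and 16.4 in ddm1nrpe1 and 37.7, 39.2 and 40.3 in ddm1cmt2, against 31.1, 29.4 and 25.7 in ddm1. The ddm1nrpe1 libraries lay wholly below ddm1 and the ddm1cmt2 libraries wholly above it. MYC2 fell in ddm1nrpe1 (-0.76 ± 0.12, adjusted p = 9.9e-05), rose in ddm1cmt2 (0.45 ± 0.12, adjusted p = 0.00748) and stood at -0.15 ± 0.12 in ddm1nrpd1 (adjusted p = 0.325). Tested directly, MYC2 was 2.31-fold higher in ddm1cmt2 than in ddm1nrpe1 (1.21 ± 0.12, adjusted p = 5.32e-07). MYC4, which acts beside MYC2, fell in ddm1nrpe1 (16.8 against 29.4 CPM, -0.81 ± 0.12, adjusted p = 3.79e-05) and stood at -0.02 ± 0.11 in ddm1nrpd1 and 0.02 ± 0.11 in ddm1cmt2. MYC3, the third of these factors and named here after its values were seen, rose in ddm1cmt2 (60.8 against 44.6 CPM, 0.45 ± 0.11, adjusted p = 0.00577). It stood at -0.09 ± 0.11 in ddm1nrpd1 and 0.13 ± 0.11 in ddm1nrpe1 (adjusted p = 0.537 and 0.348), so only MYC2 of the 3 was called in opposite directions. ORA59, a factor of the joint jasmonate and ethylene branch, rose in ddm1nrpe1 (8.11 against 3.50 CPM, 1.21 ± 0.20, adjusted p = 0.000155) and did not pass in ddm1nrpd1 (-0.35 ± 0.22) or ddm1cmt2 (0.15 ± 0.22). JAM2, a bHLH repressor that competes with MYC2, fell in ddm1nrpd1 (-0.48 ± 0.12, adjusted p = 0.00312). Without ddm1 replicate 3 the MYC2 rise in ddm1cmt2 missed the threshold (0.35, adjusted p = 0.0556), which left 1 factor called there, and 1 factor was called in ddm1nrpd1 without ddm1nrpd1 replicate 2 or ddm1 replicates 2 or 3.

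**Figure D4:**
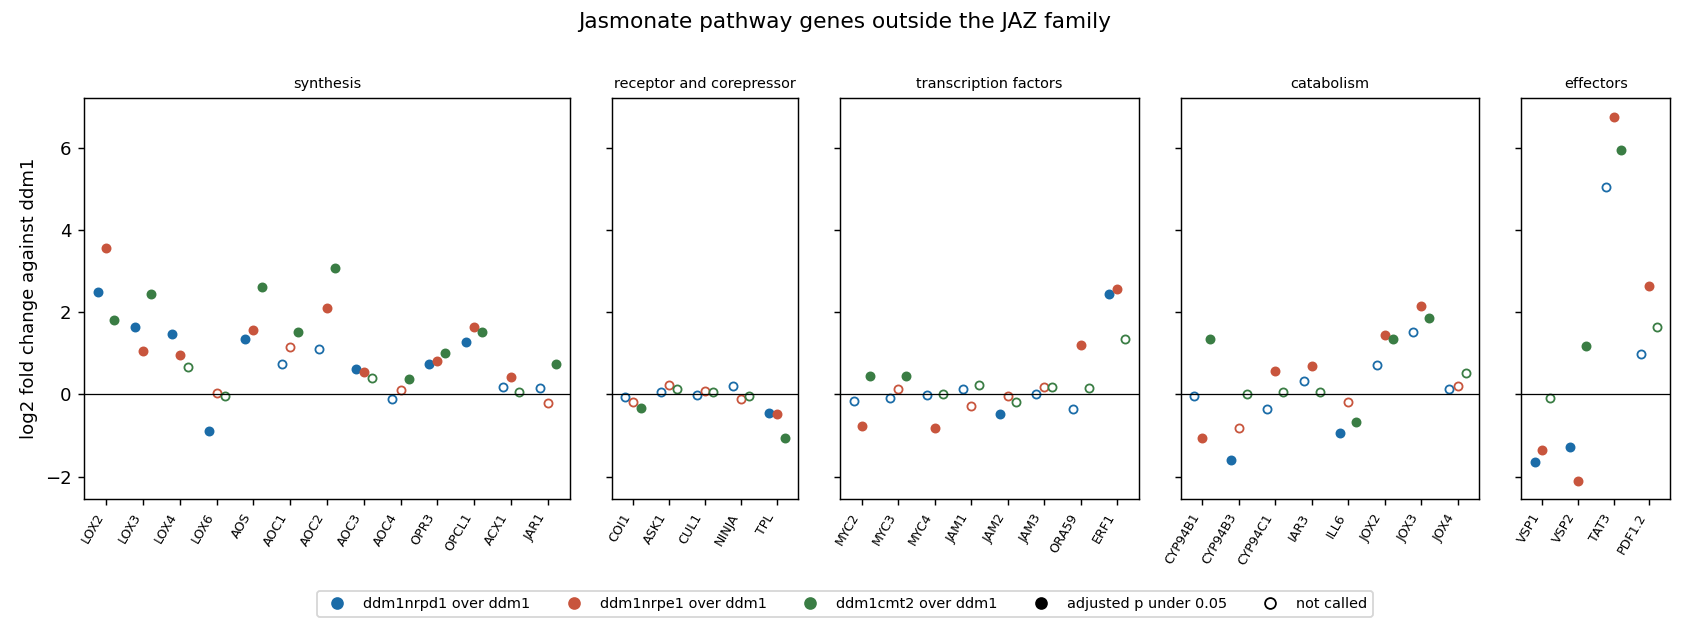
Log2 fold change against ddm1 (y axis) of the 38 other tested jasmonate pathway genes, a panel for each role, with a point per gene and double mutant; filled points passed the test (adjusted p under 0.05). Synthesis genes lie mostly above 0 in all 3 double mutants (medians 0.74, 0.95 and 1.01), and the MYC2 and VSP2 points of ddm1nrpe1 and ddm1cmt2 lie on opposite sides of 0.

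Of 8 tested genes that remove active jasmonate, 2 fell in ddm1nrpd1, 4 rose and 1 fell in ddm1nrpe1, and 3 rose and 1 fell in ddm1cmt2. The shares called among all tested loci were 44.6%, 50.4% and 36.1%, and nothing particular to these genes is read from their counts. CYP94B1, a cytochrome P450 that oxidises the active conjugate, had 1.41, 2.02 and 2.08 CPM in ddm1nrpd1, 0.828, 0.717 and 1.19 in ddm1nrpe1 and 5.05, 5.48 and 4.11 in ddm1cmt2, against 1.76, 2.59 and 1.44 in ddm1. It rose in ddm1cmt2 (1.36 ± 0.27, adjusted p = 0.000908) and fell in ddm1nrpe1 (-1.05 ± 0.31, adjusted p = 0.0112), where the call was lost without ddm1 replicate 2 (-0.80, adjusted p = 0.0692). JOX2, a jasmonate oxidase, rose in ddm1nrpe1 (1.46 ± 0.30, adjusted p = 0.00156) and ddm1cmt2 (1.36 ± 0.31, adjusted p = 0.00443) and stood at 0.71 ± 0.31 in ddm1nrpd1 (adjusted p = 0.081), where it passed without ddm1cmt2 replicate 2 (adjusted p = 0.0493) or replicate 3 (adjusted p = 0.00659). The amidohydrolase genes ILL6 and IAR3 differed from each other: ILL6 fell in ddm1nrpd1 (-0.94 ± 0.21, adjusted p = 0.00217) and ddm1cmt2 (-0.68 ± 0.22, adjusted p = 0.0245), while IAR3 rose in ddm1nrpe1 (0.69 ± 0.16, adjusted p = 0.00232). The ILL6 call in ddm1cmt2 was lost without ddm1cmt2 replicate 2 or ddm1 replicates 1 or 2 (adjusted p between 0.0727 and 0.0957). The number of these genes called in ddm1nrpd1 was 5 with its own 6 libraries, where JOX2 (adjusted p = 0.0122) and IAR3 (0.33, adjusted p = 0.0463) rose, and 4 without ddm1cmt2 replicate 2. JOX2 also rose there by DESeq2 (adjusted p = 0.0419). Without ddm1 replicate 2 the number was 3 in ddm1nrpe1 and 2 in ddm1cmt2.

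Of 4 tested effector genes, 2 fell in ddm1nrpd1, 2 rose and 2 fell in ddm1nrpe1, and 2 rose in ddm1cmt2. Among all tested loci, 44.6%, 50.4% and 36.1% were called, and with 4 genes nothing is read from these counts. VSP2, a vegetative storage protein gene of the MYC branch, had 5.46, 7.17 and 7.85 CPM in ddm1nrpd1, 2.54, 3.42 and 5.61 in ddm1nrpe1 and 42.8, 42.8 and 27.1 in ddm1cmt2, against 14.4, 16.3 and 19.0 in ddm1. Its groups did not overlap with ddm1. It fell in ddm1nrpd1 (-1.28 ± 0.25, adjusted p = 0.00134) and ddm1nrpe1 (-2.10 ± 0.27, adjusted p = 4.51e-05) and rose in ddm1cmt2 (1.18 ± 0.24, adjusted p = 0.00189). It was 9.69-fold higher in ddm1cmt2 than in ddm1nrpe1 (3.28 ± 0.26, adjusted p = 4.55e-07). Its paralog VSP1, with which it may share reads, fell in ddm1nrpd1 (-1.65 ± 0.53, adjusted p = 0.0216) and ddm1nrpe1 (-1.36 ± 0.52, adjusted p = 0.0436), although its libraries overlapped with ddm1 in both. PDF1.2, a defensin gene of the ORA59 branch, had 136, 73.5 and 82.4 CPM in ddm1nrpe1, against 20.1, 27.0 and 0.673 in ddm1. It rose in ddm1nrpe1 by 2.65 ± 0.96 (adjusted p = 0.0469), with ddm1 replicate 3 far below the other ddm1 libraries. TAT3, a tyrosine aminotransferase induced by jasmonate, had 8.75, 11.0 and 9.99 CPM in ddm1nrpd1, 49.6, 26.6 and 21.8 in ddm1nrpe1 and 4.94, 1.10 and 50.8 in ddm1cmt2, against 0.329, 0.617 and 0 in ddm1. TAT3 rose in ddm1nrpe1 (6.77 ± 1.82, adjusted p = 0.0141) and in ddm1cmt2 (5.95 ± 1.94, adjusted p = 0.0423), and stood at 5.06 ± 2.05 in ddm1nrpd1 (adjusted p = 0.0766). Without ddm1cmt2 replicate 3 its ddm1cmt2 value was 3.18 (adjusted p = 0.0822).

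The calls of VSP1, PDF1.2 and TAT3 depended on single libraries, while VSP2 kept its call in each of its 3 comparisons. In ddm1nrpd1, VSP1 missed the threshold without ddm1nrpd1 replicates 1 or 3 or ddm1 replicate 1, which left 1 effector called, and TAT3 passed without ddm1cmt2 replicates 2 or 3, by DESeq2 (5.01, adjusted p = 0.000411) and with its own 6 libraries (5.05, adjusted p = 5.51e-07). In ddm1nrpe1, VSP1 kept its call in 4 of the 12 fits that leave out 1 library, PDF1.2 in 2 and TAT3 in 11, all but the one without ddm1 replicate 3. The number of effectors called there was 2 without ddm1nrpd1 replicate 3, ddm1nrpe1 replicates 1 or 2, ddm1cmt2 replicate 1 or any ddm1 replicate, and 3 without each of the others. In ddm1cmt2, TAT3 kept its call in 2 of these 12 fits, those without ddm1cmt2 replicates 1 or 2, and 1 effector was called in the other 10. By limma-voom TAT3 was not called in ddm1nrpe1 (7.14, adjusted p = 0.126) or ddm1cmt2 (4.64, adjusted p = 0.363), nor VSP1 in ddm1nrpe1 (-1.35, adjusted p = 0.052). With the 6 libraries alone VSP1 (adjusted p = 0.0826) and PDF1.2 (adjusted p = 0.0746) were not called in ddm1nrpe1 and TAT3 (adjusted p = 0.151) was not called in ddm1cmt2.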

How the data were processed

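RNA libraries were grouped by the genotype and replicate number of their labels. The authors deposited a table of raw read counts per locus beside CPM values of the same libraries; the deposited counts were used, which are whole and sum to other totals in each library, and the deposited CPM were not. The submitters' processing notes name Trimmomatic, TopHat, HTSeq and edgeR and the build TAIR10, without roles or versions; the sources used here state neither the strand setting nor how reads matching several loci were counted, which bears on close relatives such as JAZ1 and JAZ2 or JAZ7 and JAZ8. RefSeq's gene table (assembly TAIR10.1) gave gene names and overlaps and held 22869 of the 25069 loci; as the builds' names differ, no coordinates are printed.

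The counts went through edgeR 4.0.16 (R 4.3.3): filterByExpr on the 4 groups with its minimum count of 10 (24839 loci kept), TMM factors, 1 model of group means over 12 libraries (8 residual degrees of freedom) with robust quasi-likelihood dispersions, and F tests with Benjamini-Hochberg adjustment over all tested loci. The standard error is the size of the log2 fold change over the square root of F. Library totals of 7.84 to 24.8 M set the precision. Log2 patterns used a pseudocount of 0.25 CPM, and ratios within a library used 0.5 added counts. The steps were tested on simulated counts.

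All 10 members are reported. From other lists, up to 4 called genes a list were named by smallest adjusted p against ddm1, with the mutated genes and 3 most similar loci for members spanning at least 2-fold. The members and lists were chosen with earlier results of these data known. Alternatives were RLE and upper-quartile factors, factors without plastid and mitochondrial loci, DESeq2 1.42.0, limma 3.58.1 with voom, a fit with no filter or with loci at CPM 1 in 3 libraries, the 6 libraries alone, the replicate number as a block and each library left out. JAZ4, JAZ11 and JAZ13 and the sequences of the genes were not used here.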

Additional observations from a re-analysis of the deposited data

How the results depend on the processing

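Across 21 other fits, the 8 JAZ members tested in the main fit gave the same direction and call 961 times. They lost a call 21 times, gained one 9 times and changed sign 16 times. Calls of JAZ7, which the main filter left out, are not in these numbers. The count of risen members in ddm1nrpd1 was 2 with no filter, where JAZ7 was added, and 2 with the 6 libraries alone, where JAZ5 was added. In ddm1cmt2 the 6 libraries alone gave 1 risen and 1 fallen member (JAZ1 lost, JAZ9 added). In ddm1cmt2 against ddm1nrpd1, 1 member was higher, JAZ3 being lost, with upper-quartile factors, without plastid and mitochondrial loci, with DESeq2, with no filter, with CPM 1 in 3 libraries, with the 6 libraries alone and with the replicate block. There 2 were lower, JAZ6 being added, with upper-quartile factors, without plastid and mitochondrial loci, with no filter and with CPM 1 in 3 libraries. In ddm1cmt2 against ddm1nrpe1 the 6 libraries alone left 0 higher and 3 lower (JAZ9 lost, JAZ7 added). With no filter JAZ7 was added too in ddm1nrpe1, for 5 risen, and in ddm1cmt2 against ddm1nrpe1, for 3 lower. JAZ7 was added because it is below the filter otherwise; the cause of the other changes was not tested.

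Leaving out each library in turn gave 1 to 3 risen members in ddm1nrpd1 and 1 to 2 in ddm1cmt2. It gave 1 to 2 higher and 1 to 2 lower in ddm1cmt2 against ddm1nrpd1, and 0 to 1 higher in ddm1cmt2 against ddm1nrpe1. Of the other jasmonate genes, 11 to 18 rose in ddm1nrpe1 and 1 to 3 fell in ddm1cmt2.

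Log2 fold changes that changed sign were not called in either direction. Over the fits without 1 library they ran, in ddm1nrpd1 against ddm1, between -0.20 and 0.05 (TIFY8), -0.07 and 0.04 (PPD2), -0.13 and 0.09 (MYC4), -0.22 and 0.21 (CYP94B1) and -0.02 and 0.23 (DDM1). In ddm1nrpe1 they ran between -0.11 and 0.05 (JAM2) and -0.34 and 0.09 (JAZ10). In ddm1cmt2 they ran between -0.13 and 0.04 (JAZ6), -0.09 and 0.11 (MYC4), -0.04 and 0.40 (ORA59), -0.10 and 0.18 (IAR3), -0.51 and 0.51 (VSP1) and -0.20 and 0.06 (DDM1). In ddm1nrpe1 against ddm1nrpd1 they ran between -0.18 and 0.05 (JAZ1) and -0.08 and 0.08 (JAZ2), and in ddm1cmt2 against ddm1nrpd1 between -0.38 and 0.28 (JAZ1) and -0.28 and 0.24 (JAZ10). In ddm1cmt2 against ddm1nrpe1 they ran between -0.30 and 0.36 (JAZ1), -0.09 and 0.11 (JAZ2) and -0.20 and 0.51 (JAZ5). With limma-voom, VSP1 stood at 0.12 in ddm1cmt2 and JAZ1 at -0.04 in ddm1cmt2 against ddm1nrpd1, and MYC4 stood at -0.03 in ddm1cmt2 with upper-quartile factors. Those factors also called COI1 and JAR1 lower in ddm1nrpe1 (adjusted p = 0.0496 and 0.0299) and CMT2 lower in ddm1cmt2 (adjusted p = 0.0458), and left PDF1.2 in ddm1nrpe1 uncalled (adjusted p = 0.0505).

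For libraries that carry the same replicate number, the deviations from their group means correlated at -0.313 to 0.233 over 18 pairs, 3 of them over 0.1. Pairs with different numbers were not compared, so whether libraries of one number share anything more was not tested. With that number as a block, 10662, 12207 and 8559 loci were called in ddm1nrpd1, ddm1nrpe1 and ddm1cmt2 in place of 11081, 12527 and 8971, and no member's call changed apart from JAZ3 in ddm1cmt2 against ddm1nrpd1. Of the other named genes, VSP1 in ddm1nrpe1 (adjusted p = 0.0737) and TAT3 in ddm1cmt2 (adjusted p = 0.0835) were not called with the block. Depth limits JAZ5, JAZ7, JAZ8 and JAZ10, which had few reads.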
